A study of Drosophila melanogaster with 2 samples.

Results

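Deep intragenic regions are stretches of open chromatin that lie inside a protein-coding gene and at least 10000 bp from the start or end of any annotated gene. They were chosen by position alone. Peaks of both ATAC-seq replicates that overlapped by at least 1 bp were merged, merged regions with a peak from each replicate were kept as consensus regions, and 1535 of the 14656 consensus regions (10.5%) met the rule. They lay in 460 genes, and 48 of them lay in more than 1 gene because gene spans overlap. In ATAC-seq the Tn5 transposase cuts DNA that is not covered by nucleosomes, so that clusters of cut sites mark accessible chromatin. Accessible chromatin far from a gene's ends can be an enhancer, a silencer, an internal promoter or a boundary element, and an ATAC-seq peak does not tell these apart. Fly genes are mostly short, and those long enough to hold such regions include many regulators of neuronal development, RNA processing and cell recognition, whose long introns are known to carry tissue-specific enhancers. Kenyon cells, the intrinsic neurons of the mushroom body (MB), form its lobes and store olfactory and courtship memories.

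The 2 samples were biological replicates of 1 condition, naive flies, and no comparison between conditions was possible. Nuclei were captured with anti-GFP beads from pools of 50 to 60 heads, by INTACT, through the nuclear envelope fusion UAS-unc84::2xGFP under R14H06-Gal4, a driver made from an enhancer of rut. The flies also carried tubGal80(ts), a temperature-sensitive repressor of Gal4, and the non-targeting hairpin P{VALIUM20-mCherry.RNAi}attP2 as a control for RNAi, in a w* background. The paper's methods give male flies for INTACT, and the age of the flies is not given in the sources used here. Because the driver sets which cells carry the tag, the lists describe nuclei in which R14H06-Gal4 was active and any other nuclei bound to the beads.

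Replicate 1 had 17942 peaks and replicate 2 had 15248, and the lists hold no read counts. The paper's methods give unequal totals of filtered reads for the replicates, without naming which replicate each total belongs to. As a check of the labelled tissue, all 12 Kenyon cell markers examined (among them ey, dac, Mef2, rut and prt) had a consensus region in or within 500 bp of the gene, against 68% of 13922 protein-coding genes. The same was true of 5 of 8 photoreceptor markers, 3 of 7 glia markers, 1 of 6 muscle markers and 2 of 5 fat body markers. Some of these regions were strong. The highest at Rh3, a rhodopsin gene, had 6.99-fold enrichment in replicate 1 and 6.69 in replicate 2, and that at the glial gene wrapper had 6.36 and 6.18, while ninaE, the main rhodopsin gene, and repo, the factor that defines glia, had none. None of the 7 glia markers and 5 fat body markers was long enough to hold a deep region. Of the 12 Kenyon cell markers 8 were, against 790 of the 13922 protein-coding genes. Longer genes have more room for a region, so the share of 68% is not matched to the lengths of the markers. The part of other cells in the deep regions was not tested.

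The strength of each region is given as MACS2's fold enrichment, the ratio of the signal at the summit to the local background of the same library, taking the strongest peak of each replicate in a region. Deep regions were weaker and narrower than regions at gene ends and close to other regions away from them. Their median fold enrichment was 2.35 in replicate 1 and 2.18 in replicate 2, against 2.81 and 2.69 for all other consensus regions. Regions that covered a gene end had medians of 3.63 and 3.54. Of the classes away from gene ends, intragenic regions at 1 to 10 kb from an end had medians of 2.18 in replicate 1 and 2.04 in replicate 2, and intergenic regions at least 2 kb from any gene had 2.54 and 2.41. Deep regions thus lay between these classes in both replicates. Their median width was 753 bp, against 731 bp for intragenic regions at 1 to 10 kb, 701 bp for intergenic regions and 1264 bp for regions over a gene end. A width of 2500 bp or more was seen in 32 deep regions (2.08%), against 1.35% of intragenic regions at 1 to 10 kb, 1.12% of intergenic regions and 6.41% of regions over a gene end. A wider region is more likely to cover a gene end, so the definition of the classes enters this contrast in width. Its part was not tested. Peaks of a library are not replicates of a condition, so that no test was made between the classes and the differences are given as measured in each replicate.

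**Figure D1:**
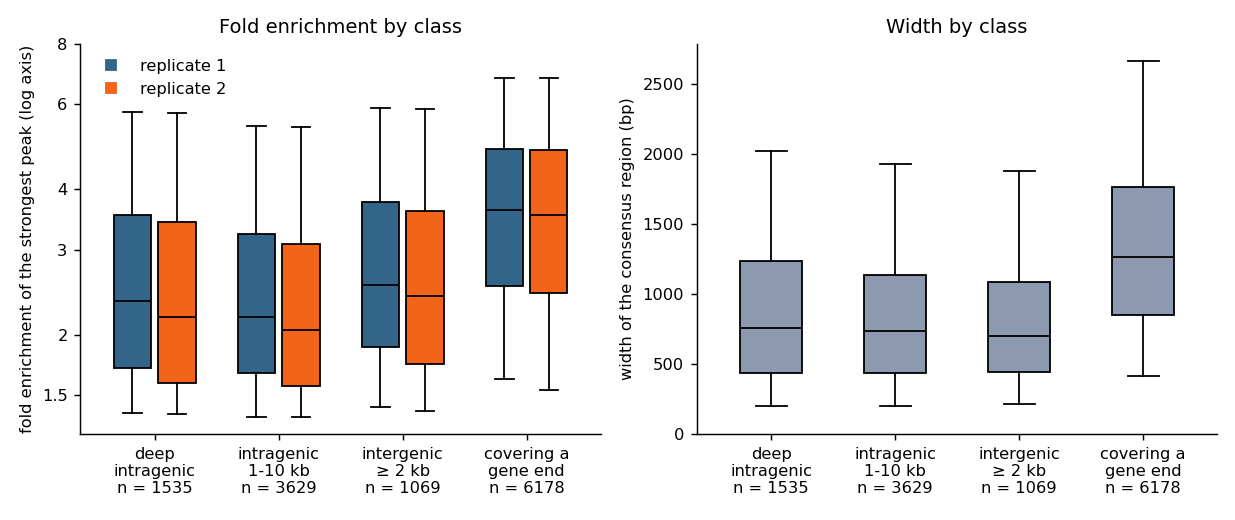
Fold enrichment of the strongest peak of each replicate (left, log axis) and width of the consensus region in bp (right) for 4 classes of consensus regions. Boxes span the interquartile range of the regions, lines mark medians and whiskers reach the 5th and 95th percentiles. Deep regions have medians of 2.35 in replicate 1 and 2.18 in replicate 2, and regions over a gene end have 3.63 and 3.54.

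The shares of weak and strong sites likewise lay between those of the other classes away from gene ends. A mean fold enrichment under 2 was seen in 654 deep regions (42.6%), against 46.5% of intragenic regions at 1 to 10 kb, 34.2% of intergenic regions and 13.7% of regions over a gene end. A mean of 5 or more was reached by 140 deep regions (9.12%), against 6.78% of intragenic regions at 1 to 10 kb, 10.1% of intergenic regions, 22.1% of regions over a gene end and 13.8% of all consensus regions. These 140 regions were spread over 122 host genes, and no gene had more than 3 of them. Significance, as -log10 q, had a median of 80.0 in replicate 1 and 30.5 in replicate 2, and it was under 10 for 8.27% of deep regions in replicate 1 and 27.8% in replicate 2.

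Replicates gave nearly the same order of deep regions. Across the 1535 regions the replicates had a Pearson's r of 0.985 on the log2 scale and a Spearman's rho of 0.976, as a description, since regions share their libraries and their background. The median ratio of replicate 1 to replicate 2 was 1.04, the middle 90% of ratios lay between 0.918 and 1.21, and replicate 1 had the higher value in 1076 regions (70.1%). The largest differences were found at unc-13-4A, with 3.73 in replicate 1 and 2.67 in replicate 2, at CG17839, with 1.86 and 1.33, and at vex, with 1.89 and 1.37. Peaks found in a single replicate were weak. Of 2028 merged deep regions, 466 were called in replicate 1 alone, with a median fold enrichment of 1.31 and a highest value of 1.70, and 27 in replicate 2 alone. The part of read depth in these counts was not tested. Regions of replicate 1 alone made up 23.0% of merged deep regions and 16.7% of all merged regions.

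**Figure D2:**
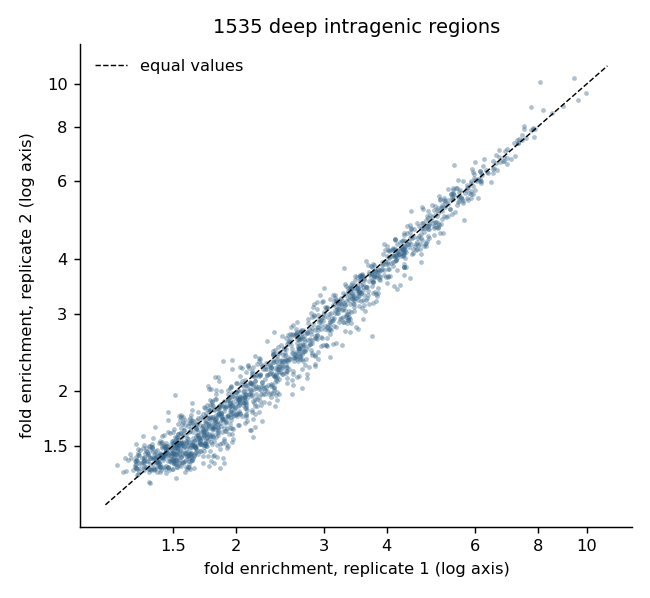
Fold enrichment of the 1535 deep regions in replicate 1 (x axis) and replicate 2 (y axis), both on log axes, with 1 point per region and a dashed line at equal values. Points follow the line over the whole range, with a median ratio of 1.04.

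Deep chromatin was open less often than chromatin near gene ends. Stretches of protein-coding genes at least 10000 bp from any gene end made up 14.9% of the annotated arms, and 7.40% of their bases lay in a consensus region. In comparison, 8.82% of bases were covered inside genes at 1 to 10 kb from an end, 3.87% in intergenic DNA at least 2 kb away and 22.6% within 1 kb of a gene end. The deep stretches include those of long pericentromeric genes, such as Myo81F with 1843871 bp and no region, and the share without them was not computed. By arm, the covered share of deep stretches ran from 2.23% on chromosome 4 to 9.97% on 2L. The order of deep stretches and those at 1 to 10 kb may therefore differ away from the centromeres. Within these stretches the regions showed no marked position, as summits fell in the central part of their stretch, between its lower and upper quartile, in 829 of 1583 cases (52.4%). The median distance to the nearest gene end was 15893 bp. Median fold enrichment was higher at 30000 to 50000 bp than at 10000 to 15000 bp, and lowest from 50000 bp on, in both replicates. From 10000 to 15000 bp the medians were 2.21 in replicate 1 and 2.06 in replicate 2 (683 regions). They were 2.42 and 2.27 from 15000 to 20000 bp (360 regions), and 2.43 and 2.26 from 20000 to 30000 bp (299 regions). From 30000 to 50000 bp they were 2.58 and 2.34 (163 regions), and from 50000 bp on they were 1.98 and 1.84 (30 regions). Just inside the threshold, at 10004 bp, a region of CG34357 had 3.75 and 3.17, and at 10011 bp a region of CG42342 had 1.53 and 1.52. Just outside, at 9998 bp, a region of igl had 5.08 in replicate 1 and 5.09 in replicate 2, and at 9994 bp a region of Mnt had 2.58 and 2.47.

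Host genes were long by construction, since a deep region lies at least 10000 bp from both ends of its gene. Of 13922 protein-coding genes on the arms, 790 had at least 1 base far enough from every gene end to hold a deep region and are called eligible, and 460 of them (58.2%) did hold one. The median span was 50827 bp for host genes and 31729 bp for eligible genes without a deep region, with 2163 bp for all protein-coding genes. A single deep region was found in 155 host genes, 2 to 4 in 187, 5 to 9 in 89 and 10 or more in 29. These 29 genes, 3.67% of eligible genes, held 373 deep regions (24.3%). The number of regions followed the length of the eligible stretch, with a Spearman's rho of 0.653 over the 790 genes, which share libraries and overlap in places. Among genes with 20000 to 50000 bp of eligible stretch, 161 of 187 (86.1%) were hosts, with 1.12 regions per 10 kb. Among the 90 genes with 50000 bp or more, which include the pericentromeric ones, 81.1% were hosts and the density was 0.505 per 10 kb. Genes with 10000 to 20000 bp had 68.1% hosts and 0.949 per 10 kb, and none of the 88 genes under 2000 bp was a host. Neighbouring regions in a gene lay a median of 3382 bp apart, 21.1% of 1123 neighbouring pairs were closer than 1000 bp, and 17.1% were 10000 bp or more apart. Most host genes also had open chromatin at their own ends. A consensus region lay within 500 bp of the start or end of 424 host genes (92.2%), against 279 of the 330 eligible genes without a deep region (84.5%).

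**Figure D3:**
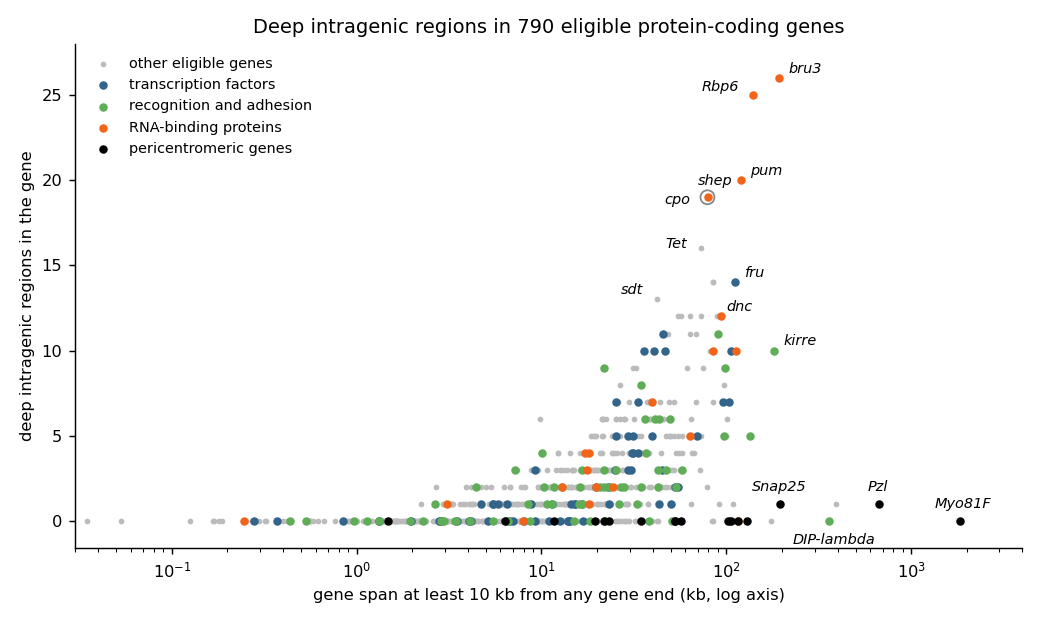
Number of deep regions (y axis) against the length of gene span at least 10 kb from any gene end (x axis, kb, log axis) for the 790 eligible genes, with 4 gene lists in colour and a grey ring for cpo, which lies under shep. The RNA-binding genes bru3 and Rbp6 hold 26 and 25 regions, while the pericentromeric gene Myo81F, with the longest eligible span, holds none.

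The genes with most deep regions encoded RNA-binding proteins. bru3, a gene of the Bruno (CELF) family of splicing and translation regulators, held 26 over an eligible stretch of 193519 bp on 3L. Rbp6, which encodes a protein of the Musashi type, held 25, and pum, the translational repressor Pumilio that acts in neuronal excitability and long-term memory, held 20. cpo and shep, which encode the neuronal RNA-binding proteins Couch potato and Alan shepard, held 19 each. Of the list of RNA-binding proteins, which lacks cpo, 17 of 20 eligible genes (85.0%) were hosts, against 58.2% of all eligible genes. Their eligible stretches were longer, with a median of 32046 bp against 12917 bp for all eligible genes. Per length the list held 1.30 regions per 10 kb, against 0.771 for all eligible genes and 0.925 for eligible genes outside the list of pericentromeric genes. Those genes still include long ones near a centromere, such as DIP-lambda with 359081 bp and no region. Eligible genes 5 to 10 Mb from the centromeric end of their arm held 1.01 per 10 kb, and those farther out held 1.07. The 3 eligible genes of the list without a deep region were AGO3, Imp and orb.

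Regions within these genes differed widely in strength. In bru3, fold enrichment ran from 1.35 to 5.73 in replicate 1 (median 2.62) and from 1.50 to 5.65 in replicate 2 (median 2.63). Its strongest region, on 3L from 13666691 to 13668295 (release 6), lay 45771 bp from the nearest gene end and had 5.73 in replicate 1 and 5.65 in replicate 2. In each of bru3, Rbp6, pum, cpo and shep, the strongest region was the same in both replicates. The strongest region of pum, on 3R from 9157526 to 9158581, had 7.82 in replicate 1 and 7.91 in replicate 2, and was 18936 bp from a gene end. The strongest of cpo, on 3R from 17997235 to 17998156, had 7.28 and 7.48, and that of shep, on 3L from 5184217 to 5185399, had 5.89 and 5.71. These sites stood well above the typical region of their genes, since the medians in replicate 1 were 2.29 in pum, 1.93 in cpo and 2.23 in shep. Other splicing regulators followed, with 12 regions in bru1, 10 in heph (the polypyrimidine tract-binding protein), 10 in mbl (Muscleblind) and 7 in Rbfox1. mbl had 4 regions above 4-fold in both replicates. The strongest by mean, on 2R from 17357071 to 17358162, had 5.68 in replicate 1 and 5.36 in replicate 2. In replicate 2 alone the region from 17343147 to 17345176 was higher, with 5.56, against 5.09 in replicate 1.

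**Figure D4:**
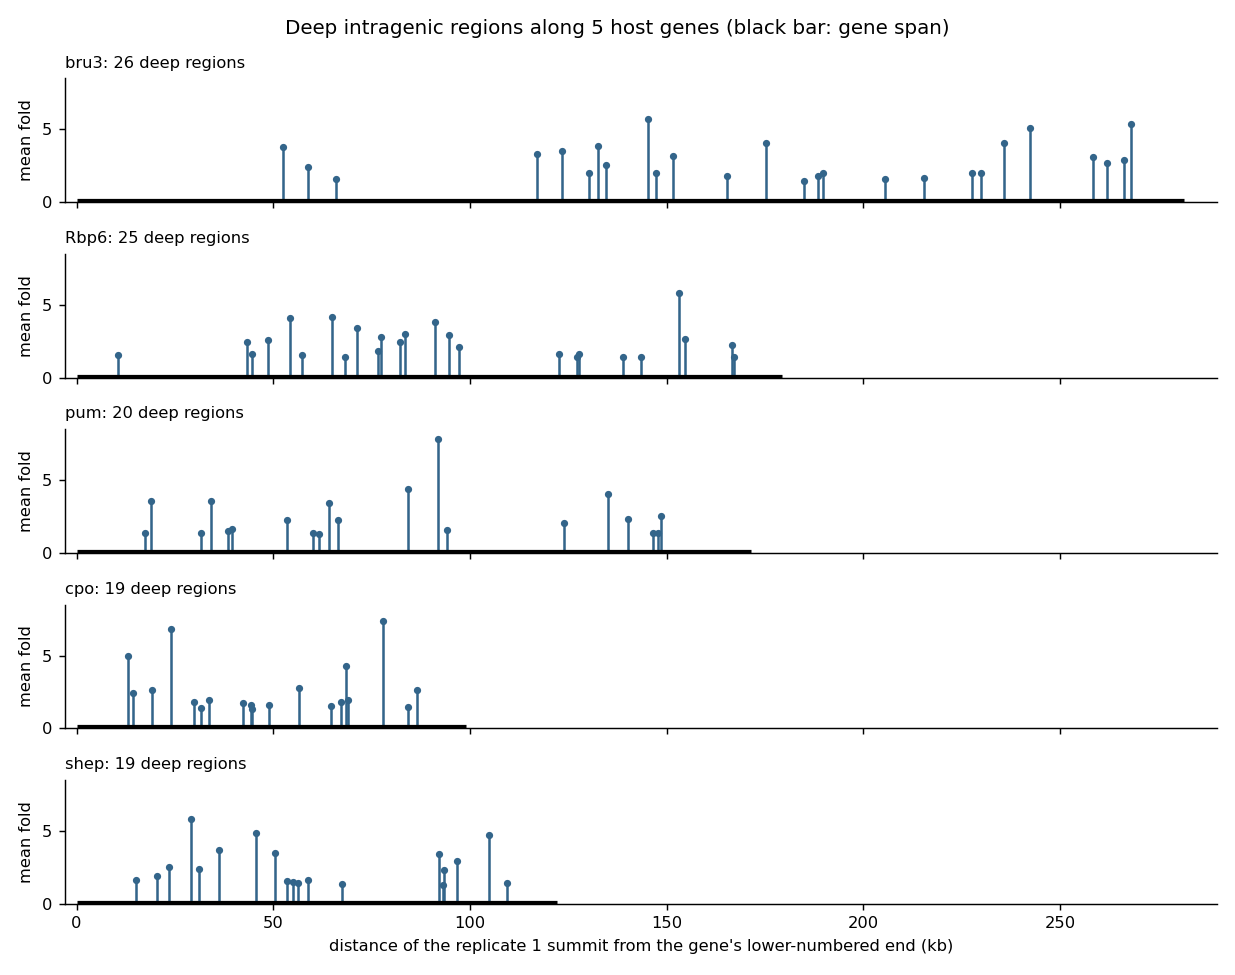
Position of each deep region along the 5 genes with most of them, as the distance of the replicate 1 summit from the gene's lower-numbered end (x axis, kb), with the mean fold enrichment of the replicates as the height of the line (y axis) and the gene span as a black bar. bru3 has 26 regions, Rbp6 25, pum 20, and cpo and shep 19 each, and each gene has both weak and strong regions.

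Outside this group, the genes with most deep regions were Tet, the fly member of the Ten-Eleven Translocation enzyme family, with 16, fru, the zinc-finger factor of male courtship behaviour, with 14, and sdt, which encodes the polarity protein Stardust, with 13. CG46467 and Glut4EF overlap and share the same 14 regions. fru was long and had no strong region, with fold enrichment from 1.23 to 3.35 in replicate 1 and from 1.34 to 2.90 in replicate 2. Its medians of 2.23 and 2.14 were close to the 2.35 and 2.18 of all deep regions. sdt had 3.10 regions per 10 kb, and among genes with at least 20000 bp of eligible stretch only side-II was denser, with 4.14. CG17839, Pde1c, Snoo (a Smad co-repressor), Svil (the actin-binding Supervillin), bru1 and dnc held 12 each. CadN, Eip93F, Gfrl and Sdc (Syndecan) held 11. The 20 genes with most deep regions together held 282 of them (18.4%).

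**Figure D5:**
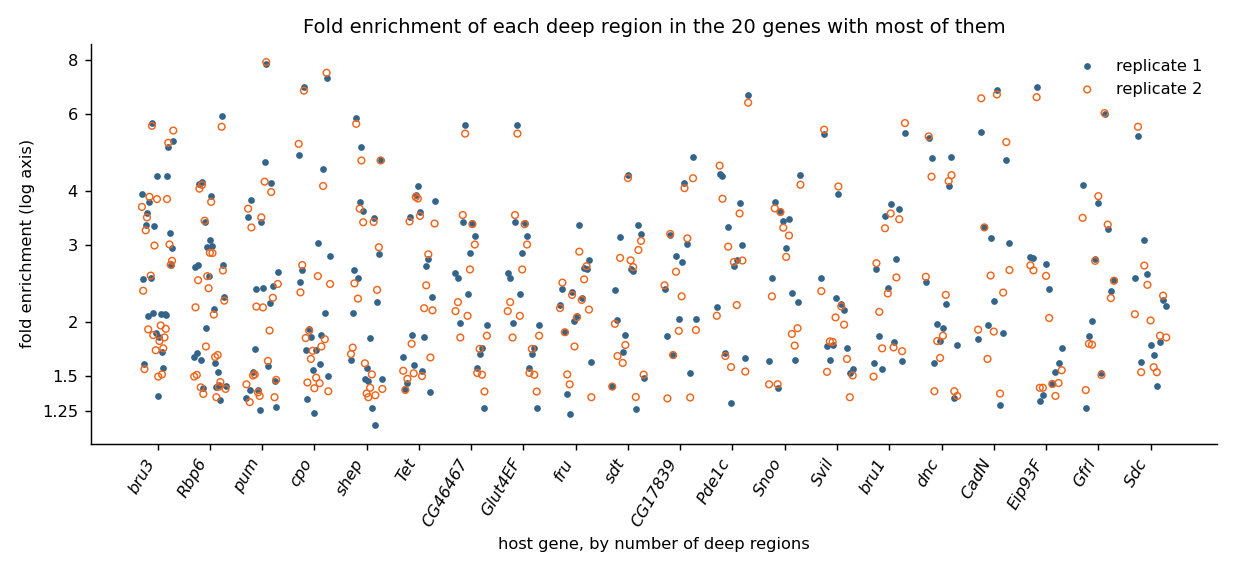
Fold enrichment (y axis, log axis) of every deep region in the 20 genes with most of them, ordered by that number, with filled points for replicate 1, open circles for replicate 2 and regions in genome order within a gene. pum has the highest region, with 7.82 and 7.91, while no region of fru exceeds 3.35. CG46467 and Glut4EF show the same regions.

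Transcription factor genes held the largest share of strong deep regions among the lists with more than 30 regions. Of 66 eligible genes on the list, 41 (62.1%) were hosts, against 58.2% of all eligible genes, and 29 of their 167 deep regions (17.4%) had a mean fold enrichment of 5 or more, against 9.12% of all deep regions. The list includes ecdysone-induced factors and nuclear receptors, some of which act in metamorphosis and the remodelling of MB gamma neurons, and their counts varied widely. Eip93F held 11 regions, Eip74EF 10, Eip75B 10, Hr4 7, EcR (the ecdysone receptor) 5, br 5 and ftz-f1 3, while Eip78C held 1 and Hr38 and Hr39 held none in 6468 bp and 1315 bp of eligible stretch. At Eip93F a single site stood well above the others, with 6.93 in replicate 1 and 6.57 in replicate 2. The next strongest had 2.82 and 2.70, and the medians of the gene were 1.74 and 1.55. Hr4, in contrast, had a median of 4.50 in replicate 1 and 4.40 in replicate 2 over its 7 regions, the highest being 7.30 and 7.35. At EcR the strongest region, on 2R from 6101986 to 6105095, had 5.78 in replicate 1 and 5.79 in replicate 2. The single deep region of Eip78C had 7.88 and 7.92.

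Several of the strongest deep regions lay in developmental regulators, the highest of them in a homeotic gene. The highest mean of all was found in Ubx, the Hox gene of the posterior thorax, on 3R from 16702699 to 16703745, with 9.45 in replicate 1 and 10.4 in replicate 2. It was the only deep region of Ubx. Next came bma, on 3L from 9926865 to 9928284, with 9.97 in replicate 1 and 9.55 in replicate 2, and trh, which encodes a bHLH-PAS factor of the trachea, on 3L from 377229 to 378637, with 9.63 and 9.21. A region of nAChRalpha3, a subunit of the nicotinic acetylcholine receptor, followed on X from 8293604 to 8296117, and here the replicates differed more, with 8.07 in replicate 1 and 10.1 in replicate 2. CG14669, sr (the activity-induced factor Stripe), Mp, CadN2, Eip78C and tai completed the 10 strongest, and all had at least 7.76 in both replicates. Antp had only 2 deep regions, with 6.53 and 5.10 in replicate 1 and 6.43 and 5.44 in replicate 2. Other eligible Hox genes on the list had fewer. Abd-B had 1, with 4.06 in replicate 1 and 3.66 in replicate 2, and pb and abd-A had none in 14264 bp and 2836 bp of eligible stretch. hth, a cofactor of Hox proteins, had 10, of which 3 exceeded 5 in both replicates. The strongest of hth had 7.74 in replicate 1 and 7.87 in replicate 2, and the weakest had 1.56 and 1.38. Pdp1, a clock-linked bZIP factor, also had 10 regions, 3 of them with a mean of 5 or more.

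Among the 8 Kenyon cell markers that were eligible, 6 were hosts, against 58.2% of all eligible genes, and the exceptions were ey and Dop1R2. They held 24 deep regions. dnc, the cAMP phosphodiesterase required for memory, held 12 regions over 89351 bp of eligible stretch on X. Its strongest, from 3190785 to 3191565, had 5.29 in replicate 1 and 5.34 in replicate 2, and the others ran down to 1.34 and 1.35. Mef2 held 5 regions that were all at least 2.32 in both replicates, the strongest with 6.37 in replicate 1 and 6.28 in replicate 2. rut, the calcium-responsive adenylyl cyclase, held 2, with 4.31 and 2.69 in replicate 1 and 4.42 and 2.65 in replicate 2. The R14H06-Gal4 transgene contains a fragment of rut, and whether reads from that copy add to these regions was not tested. trio had 5.16 in replicate 1 and 5.25 in replicate 2 at the stronger of its 2 regions, and the only region of sNPF, a neuropeptide gene, had 5.89 and 5.52. Fas2, an adhesion molecule that marks alpha/beta and gamma neurons of the MB, had 2 weaker regions, with 2.39 and 2.52 in replicate 1 and 1.85 and 2.20 in replicate 2. norpA, the only eligible photoreceptor marker, had 2 regions, with 2.07 and 1.60 in replicate 1 and 1.89 and 1.51 in replicate 2. The 3 eligible muscle markers, sls, bt and Mhc, had none over a summed eligible stretch of 68748 bp, but so few genes allow no reading against the share of all eligible genes.

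Phosphodiesterases led the list of cAMP and CaMKII signalling, in which 12 of 17 eligible genes (70.6%) were hosts, against 58.2% of all eligible genes. With dnc, Pde1c held 12 regions, Pde11 held 7, Pde9 held 3 and Pde8 held 1, while Pde6 had a short eligible stretch of 2082 bp and no region. The strongest region of Pde1c, on 2L from 11915673 to 11917188, had 6.64 in replicate 1 and 6.38 in replicate 2. The kinase gene sgg held 6 regions that were mostly weak, with medians of 1.57 and 1.43. Per length the list held 1.45 regions per 10 kb, the highest density among the lists with more than 30 regions. The density was 0.771 over all eligible genes and 0.925 without the pericentromeric list. It was 1.01 for eligible genes 5 to 10 Mb from the centromeric end of their arm and 1.07 farther out.

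Genes of cell recognition and adhesion made up the list with the largest summed eligible stretch apart from the pericentromeric genes. Of 63 eligible genes, 41 (65.1%) were hosts, against 58.2% of all eligible genes, and their 144 regions had medians of 2.21 in replicate 1 and 2.05 in replicate 2. The list held 0.661 regions per 10 kb, against 0.771 for all eligible genes. Its eligible stretch includes that of DIP-lambda and dpr21, with 359081 bp and 104513 bp near a centromere and no deep region. CadN, a neuronal cadherin, held 11 regions and kirre, an immunoglobulin protein of cell fusion and synapse formation, held 10. CadN2 had only 3, but all were strong, with 7.76, 4.32 and 5.15 in replicate 1 and 8.85, 4.10 and 5.30 in replicate 2. side-II showed the opposite pattern. Its 9 regions were packed into 21736 bp and had medians of 1.44 in replicate 1 and 1.49 in replicate 2. The teneurin gene Ten-a held 5 regions, of which 3 were at least 4.22 in both replicates and the others at most 1.67. In the list of axon guidance genes 14 of 17 eligible genes (82.4%) were hosts, led by Sema1a and sif with 6 regions each, and medians were 2.33 and 2.00.

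In the lists of ion channels and neurotransmitter receptors, 9 of 17 (52.9%) and 16 of 32 eligible genes (50.0%) were hosts, close to the 58.2% of all eligible genes. The receptor genes had a median eligible stretch of 9979 bp, against 12917 bp for all eligible genes. Sh, the Shaker potassium channel, held 9 regions on X, from 1.31 to 4.58 in replicate 1 and from 1.37 to 4.19 in replicate 2. Ca-alpha1T held 7 and eag 5, whereas cac and slo, which encode a presynaptic calcium channel and a calcium-activated potassium channel, had none in 33808 bp and 29105 bp of eligible stretch. Both had a consensus region at a gene end. Of the nicotinic receptor subunits, nAChRalpha6 held 7 regions, nAChRalpha5 4, and nAChRalpha1 and nAChRalpha3 2 each, while nAChRalpha4 had none in 39466 bp. The dopamine receptor gene Dop1R1 had 3 regions, of which the middle one had 5.07 in replicate 1 and 4.73 in replicate 2, and the others were below 1.80. Octbeta2R, an octopamine receptor, held 5 regions between 1.76 and 3.41. In the list of synaptic and active zone genes 12 of 18 eligible genes (66.7%) were hosts, against 58.2% of all eligible genes. The list held 0.705 regions per 10 kb, against 0.771 for all eligible genes. None of its 34 regions had a mean of 5 or more, against 9.12% of all deep regions, but so few regions allow no reading of this difference. The active zone scaffold gene brp had 4 regions, the strongest with 4.01 in replicate 1 and 4.06 in replicate 2.

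Regions of the same gene differed in strength. Over the 118 host genes with 5 or more deep regions, the mean fold enrichment of the strongest region was a median of 3.25 times that of the weakest. Such a ratio of extremes tends to rise with the number of regions. It was not computed for regions drawn from different genes, so it does not show a trait of regions that share a gene. Gene medians of the mean fold enrichment ran from 1.40 in Mid1 to 4.89 in bun, a TSC-22 family factor. At bun, 3 of 5 regions were at least 4.83 in both replicates and the weakest had 1.51 in replicate 1 and 1.37 in replicate 2. The widest deep region, 4452 bp, lay in pros, a neuronal differentiation factor, and had only 2.61 in replicate 1 and 2.68 in replicate 2. A region of 3388 bp in Dys (dystrophin) had 3.34 and 3.44, and a region of 3288 bp in Bsg (Basigin) had 2.59 and 2.70.

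Very long genes near the centromeres held few deep regions. Myo81F, on 3R, had the longest eligible stretch of all, 1843871 bp, and no consensus region of any kind. Of the list of pericentromeric genes, 2 of 17 eligible genes (11.8%) were hosts, against 58.2% of all eligible genes, and the only members were a region of Pzl, with 1.58 in replicate 1 and 1.71 in replicate 2, and a region of Snap25, with 1.44 and 1.43. The Pzl region was only 164 bp wide and was the farthest from any gene end, at 168098 bp. Next came a region of lovit at 111128 bp, with 1.47 in replicate 1 and 1.79 in replicate 2, and 3 regions of bru3 at 85729 to 90553 bp, with 1.35 to 2.09 in replicate 1 and 1.50 to 1.96 in replicate 2. All 10 eligible genes with the longest eligible stretch and no region, namely Myo81F, DIP-lambda, CG17684, l(3)80Fg, Gprk1, AGO3, CG41520, Parp1, dpr21 and Dbp80, lay at most 4.40 Mb from the centromeric end of their arm. Bins of distance from that end were chosen after these values had been seen. Eligible genes less than 2.5 Mb away held 0.0396 deep regions per 10 kb, those from 2.5 to 5 Mb held 0.248, those from 5 to 10 Mb held 1.01, and those farther out held 1.07. Hosts were 10 of 31 eligible genes (32.3%) in the bin nearest the centromere, 20 of 54 (37.0%) in the next, and 61.3% and 61.6% in the outer bins, so that host shares differed less than densities. Reads without a unique position were discarded before peak calling, and the part of this step in the low counts was not tested. Away from the centromeres, long genes without a deep region also occurred, such as the cadherin gene ds with 50556 bp, sdk with 42408 bp and rdgA with 37399 bp of eligible stretch, and these had consensus regions elsewhere in their span.

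The chromosome arms differed in the number of deep regions more than in their strength. 3R held 445, 3L 333, 2L 269, X 259 and 2R 224, and chromosome 4 held 5. Per 100 kb of eligible stretch, 2L had 10.5 regions, 3L 8.84, 3R 7.14, X 6.91, 2R 6.48 and chromosome 4 had 3.64. The median fold enrichment ran from 2.14 on chromosome 4 to 2.46 on X and 2L in replicate 1, and from 2.02 on chromosome 4 to 2.30 on 2R in replicate 2. Since the eligible stretches of 3R and 2R include those of Myo81F and DIP-lambda, the densities of these arms include long pericentromeric genes.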

How the data were processed

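ATAC-seq peaks of INTACT-isolated MB nuclei from 2 replicates were analysed as deposited. Upstream, the authors used Trimmomatic (version 0.39) for trimming and Bowtie2 (version 2.4.1) for alignment to release 6 (dm6), and offset cut sites by 4 bp and -5 bp. Multi-locus, mitochondrial, scaffold and duplicate reads were dropped. MACS2 (version 2.1.2, q 0.01) was run on the replicates separately. Per peak the authors deposited a fold enrichment (ratio to the local background), a -log10 p-value and -log10 q-value, and a score that follows the -log10 q-value. -log10 q was given as a description and otherwise used only for a stricter filter.

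Positions, 1-based, were compared with the RefSeq release 6 gene table, which lists gene starts and ends without strand, transcripts or exons, so that introns, exons, UTRs and internal promoters were not told apart, and a region near an alternative start inside a gene can count as deep. Sequences were not used here. A list's genes were matched by symbol or unique synonym. Members and lists were chosen with earlier results of these data known. Named were the 20 genes with most deep regions, the hosts of the 10 strongest, 5 farthest and 3 widest regions and of the 3 with the largest replicate difference, regions next to the threshold, the 10 longest eligible genes without one, and eligible genes of the lists. Genes singled out otherwise, among them Mid1, bun, ds, sdk and rdgA, were chosen after their values were seen. No test was possible with 1 condition and no counts, and precision rests on 2 replicates whose read depth is not in the files, although the paper's methods give totals. The code for merging, distances and eligible stretches was checked on simulated data. Alternatives were a reciprocal overlap of 50%, a -log10 q of at least 10, distances of 5000 and 20000 bp, ends of protein-coding genes only, the summit in place of the edge, and each replicate alone. Python (version 3.11.15), numpy (version 2.4.6), pandas (version 2.3.3), scipy (version 1.17.1) and matplotlib (version 3.10.9) were used.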

Additional observations from a re-analysis of the deposited data

How the results depend on the processing

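The alternatives gave 48 values to set against the results, of which 28 kept a count within 1.5 times or a value within the spread of the replicates, and 20 did not. The distance rule changed the counts most, with 2946 deep regions in 909 genes at 5000 bp and 492 in 150 genes at 20000 bp, in place of 1535 in 460, by construction. The share of eligible genes that were hosts was 58.2% and changed to 51.3% under a -log10 q minimum of 10 and to 52.9% at 5000 bp. The median of the mean fold enrichment was 2.26, and 2.48 with a reciprocal overlap of 50% and 2.82 with the -log10 q filter, which drops weak peaks. That filter moved the median width to 951 bp in place of 753 bp. The share of deep regions with a fold enrichment of 5 or more was 9.12%, and 10.4% with a reciprocal overlap of 50%, 12.6% with the -log10 q filter, 8.32% at 5000 bp and 9.27% with ends of protein-coding genes only. Without replicate 1 or without replicate 2, where no consensus was formed, counts were 1630 and 2034 regions in 466 and 506 genes, the share of hosts 59.0% and 64.1%, the median fold enrichment 2.08 and 1.87, the median width 582 bp and 546.5 bp, and the share at 5 or more 8.83% and 7.18%. No paired analysis was possible because all flies belong to 1 condition. Without read counts per region, what read depth limits was not measured.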
